A study of Mus musculus with 4 samples.

Results

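Myocardin, serum response factor (SRF) and the MEF2 proteins are transcription factors that switch on the contractile genes of muscle. The 10 regulators described here were chosen by gene symbol: Myocd, Srf, Abra, Mef2a, Mef2c, Mef2d, Klf4, Klf5, Elk1 and Fhl2. Each had a single probe set among the 23185 named genes of the array, and all 10 lay above the filter on low values on at least 1 array. The RNA came from airway smooth muscle cells sorted from lungs of adult Acta2-hrGFP;Cspg4-DsRED mice. These mice carry a green reporter for Acta2, a smooth muscle actin gene, and a red one for Cspg4, a gene of pericytes, and cells with the green and without the red reporter were taken. VAD mice had eaten a vitamin A-deficient diet (under 0.1 IU of vitamin A per gram), for which the labels give 3 days in one place and 5 days in another, and VAS mice had a normal vitamin A-sufficient diet with 15 IU per gram. BMS mice had eaten a powdered sufficient diet with a pan-retinoic acid receptor antagonist at 5 mcg per gram for 3 days, and CTR mice the same kind of powdered diet with corn oil vehicle for 3 days. RNA of 3 mice was pooled for each of the 4 arrays, so every group is 1 array, no difference between 2 arrays has a replicate check, and "higher" and "lower" describe these arrays. The study compared airway smooth muscle with and without retinoic acid signalling, retinoic acid being the active form of vitamin A.

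SRF binds a short DNA element, the CArG box, and what it switches on depends on its partner. Myocardin and the related MRTF proteins take it to contractile and cytoskeletal genes, while ternary complex factors such as Elk1, which growth factor signals activate, take it to immediate early genes and compete with myocardin for the same surface of SRF. MEF2 proteins bind an AT-rich site of their own and act in muscle of all kinds. Klf4 opposes myocardin in vascular smooth muscle, and Klf5 is a growth-associated factor there that was found in mice to interact with a retinoic acid receptor. Abra is an actin-binding protein that drives MRTF proteins into the nucleus, and Fhl2 is a LIM-domain cofactor that binds SRF.

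Promoter windows show which of the regulators carry these elements near their own start sites. RefSeq windows on build GRCm38.p6, of 250 bases before and 50 bases after a gene's start, were matched for 7 of the 10 members in 10 windows, and Myocd, Abra and Klf5 had no entry. A CArG box was searched as CC, then 6 bases that are each A or T, then GG, and a MEF2 site by its AT-rich consensus with 4 central bases that are each A or T. Both strands were read, and no window held overlapping matches of the 2 motifs. Of 32851 windows in the whole table, 1.63% held a CArG box and 3.19% a MEF2 site. Among the members, Srf and Fhl2 held CArG boxes, and Fhl2 and Mef2a held MEF2 sites. A match is a run of letters and not a measured binding site. The matching windows are printed on the gene's strand, with motif matches in capitals.
Srf, chr17:46556113-46556412, minus strand: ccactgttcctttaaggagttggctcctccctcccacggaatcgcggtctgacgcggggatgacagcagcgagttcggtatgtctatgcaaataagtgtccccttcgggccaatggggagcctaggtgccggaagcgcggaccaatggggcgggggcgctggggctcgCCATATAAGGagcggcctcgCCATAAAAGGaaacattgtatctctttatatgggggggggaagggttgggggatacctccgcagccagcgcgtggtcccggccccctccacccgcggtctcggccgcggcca
Fhl2, chr1:43196712-43197011, minus strand: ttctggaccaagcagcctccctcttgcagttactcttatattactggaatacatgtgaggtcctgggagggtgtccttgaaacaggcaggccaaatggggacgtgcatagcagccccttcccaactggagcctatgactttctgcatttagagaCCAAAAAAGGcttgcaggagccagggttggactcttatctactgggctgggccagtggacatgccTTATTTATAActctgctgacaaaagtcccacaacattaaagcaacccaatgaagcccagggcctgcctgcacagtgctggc
Fhl2, chr1:43163912-43164211, minus strand: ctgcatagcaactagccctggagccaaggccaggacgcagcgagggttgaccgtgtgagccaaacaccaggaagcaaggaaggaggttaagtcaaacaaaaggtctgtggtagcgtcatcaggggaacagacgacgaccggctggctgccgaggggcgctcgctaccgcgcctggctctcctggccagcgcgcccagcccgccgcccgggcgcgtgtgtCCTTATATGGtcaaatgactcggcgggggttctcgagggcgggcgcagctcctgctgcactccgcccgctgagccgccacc
Mef2a, chr7:67372809-67373108, minus strand: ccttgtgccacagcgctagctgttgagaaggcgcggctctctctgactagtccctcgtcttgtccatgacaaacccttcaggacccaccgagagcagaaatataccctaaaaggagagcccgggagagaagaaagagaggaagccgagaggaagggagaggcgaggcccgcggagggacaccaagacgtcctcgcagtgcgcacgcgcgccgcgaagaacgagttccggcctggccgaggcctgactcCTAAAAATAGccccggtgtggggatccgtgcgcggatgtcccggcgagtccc
In the Srf window, 2 CArG boxes, CCATATAAGG and CCATAAAAGG, began 82 and 62 bases before the start. One Fhl2 window had CCAAAAAAGG 96 bases and the MEF2 match TTATTTATAA 31 bases before the start, and the other had CCTTATATGG 31 bases before it. The Mef2a match, CTAAAAATAG, began 2 bases before the start and ran across it. No match lay in the windows of Mef2c, Mef2d, Klf4 and Elk1.

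Values are log2 expression made by the authors with RMA, which removes background, brings the arrays to one distribution and combines the probes of a gene, so a difference of 1 is a 2-fold change. Across all 25206 probe sets the array medians lay between 5.97 and 6.02, and 12395 named genes reached the filter level of 6.05 on at least 1 array. Of the airway smooth muscle markers, 15 of 16 passed this filter, with Chrm3 below it, and all 17 measured fibroblast markers passed as well. All 15 pericyte and vascular smooth muscle markers passed too. Among them Cspg4, whose reporter was excluded in the sort, was at 8.22 in VAD, 7.71 in VAS, 7.98 in BMS and 8.08 in CTR. In RNA of sorted pools, fewer cells of a type and less RNA per cell cannot be told apart.

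The regulator that stood apart was Abra. Its log2 level was 5.80 in VAD, against 7.21 in VAS, and 7.42 in BMS, against 6.42 in CTR. It was thus low after the deficient diet and high after the antagonist, each relative to its own control, and the VAD value lay below the filter level. The difference was -1.41 in VAD minus VAS, a level 2.66-fold lower in VAD, and 0.997 in BMS minus CTR, just under 2-fold higher in BMS. The controls were themselves apart, with CTR 0.79 lower than VAS on the log2 scale (CTR minus VAS, -0.79), so the order of the 4 arrays was BMS, VAS, CTR, VAD. Set against the other experiment's control, VAD minus CTR was -0.62 and BMS minus VAS was 0.21. Against the mean of both controls the differences were -1.02 in VAD and 0.60 in BMS. The sign held against either control in both experiments, and the 2-fold call in VAD was lost against CTR.

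**Figure D1:**
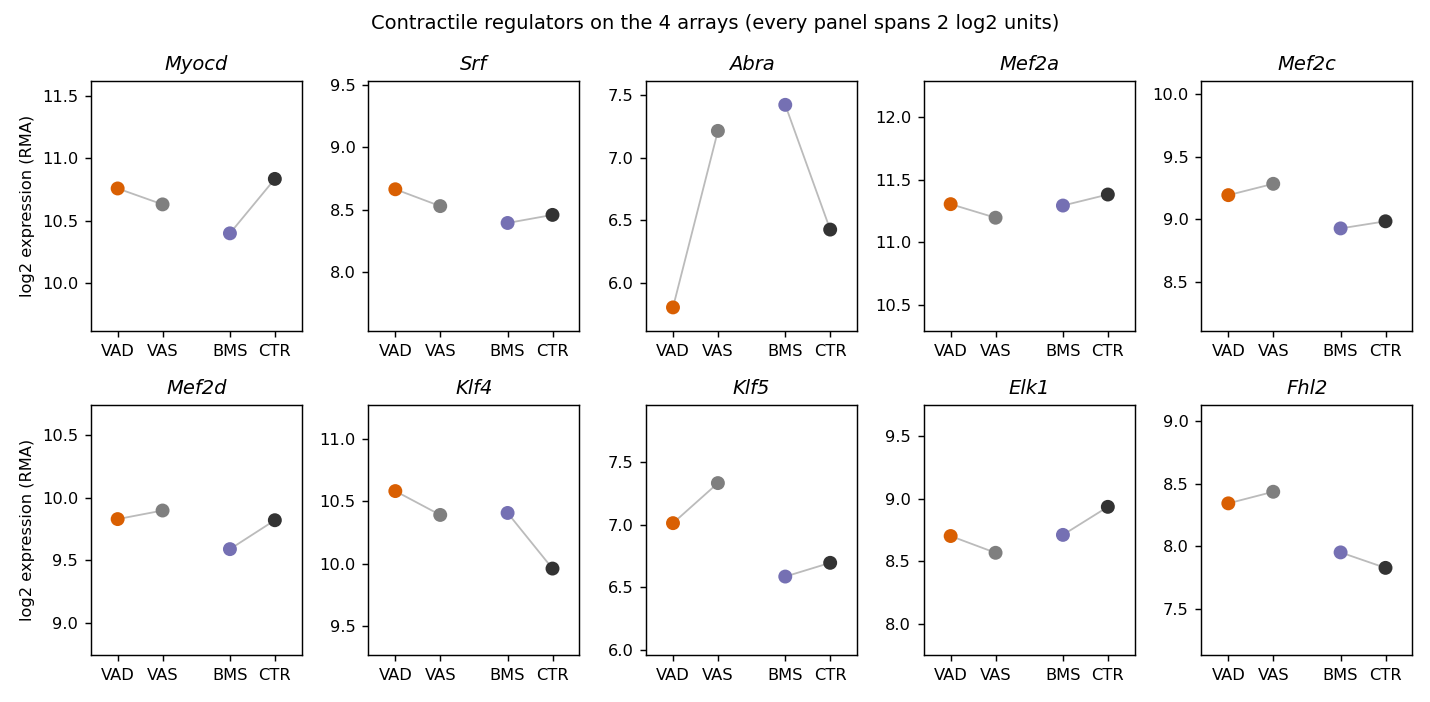
Log2 expression of each of the 10 regulators on the VAD, VAS, BMS and CTR arrays, 1 point per array of pooled RNA, with a line joining the arrays of 1 experiment and every vertical axis spanning 2 log2 units. Abra is at 5.80 on the VAD array and reaches 7.42 on the BMS array, while the other 9 genes span at most 0.75.

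Myocd and Srf, the coactivator and the DNA-binding factor at the centre of the pathway, were nearly level in the diet experiment. Myocd stood at 10.76 in VAD, against 10.63 in VAS, and at 10.40 in BMS, against 10.83 in CTR. Srf stood at 8.66 in VAD, against 8.53 in VAS, and at 8.39 in BMS, against 8.46 in CTR. Both were lowest in BMS. The differences were 0.13 for both genes in VAD minus VAS, and -0.44 for Myocd and -0.06 for Srf in BMS minus CTR. For Myocd the BMS level was also 0.23 below VAS on the log2 scale (BMS minus VAS, -0.23), and its controls differed by 0.20 (CTR minus VAS). Myocd is itself an airway smooth muscle marker, and beside its lower level 14 of the 15 marker genes past the filter, Myocd included, were lower in BMS than in CTR, with a median difference of -0.21. Pericyte and vascular smooth muscle markers were also lower in BMS than in CTR, in 13 of 15 genes, with a median difference of -0.23. Against VAS this direction turned, with 12 of the 15 higher in BMS and a median of 0.23. Fibroblast markers were higher in BMS than in CTR in 17 of 17 genes, with a median difference of 0.43. Against VAS they were higher in 13 of 17, with a median of 0.24. The part of any of these lists in the Myocd value was not tested.

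Fhl2, the LIM cofactor with CArG boxes in both of its windows, differed more between the experiments than within them. Its level was 8.34 in VAD, against 8.43 in VAS, and 7.95 in BMS, against 7.83 in CTR. Both arrays of the diet experiment were higher than both arrays of the antagonist experiment, an order also seen for Srf, Mef2c, Mef2d and Klf5. The difference was -0.09 in VAD minus VAS and 0.12 in BMS minus CTR, but -0.61 in CTR minus VAS. For Srf, whose window also holds CArG boxes, CTR minus VAS was -0.07.

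The 3 MEF2 genes moved little. Mef2a was at 11.30 in VAD, against 11.20 in VAS, and 11.29 in BMS, against 11.38 in CTR. Mef2c was at 9.19 in VAD, against 9.28 in VAS, and 8.93 in BMS, against 8.98 in CTR. Mef2d was at 9.83 in VAD, against 9.90 in VAS, and 9.59 in BMS, against 9.82 in CTR. The lowest arrays were VAS for Mef2a and BMS for Mef2c and Mef2d, and each gene spanned at most 0.36 on the log2 scale. Among the differences within an experiment, that of Mef2d in BMS minus CTR was the largest in size, at -0.23, and Mef2c was 0.30 lower in CTR than in VAS on the log2 scale (-0.30). These spans were smaller than the difference of Abra between the 2 controls.

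Klf4, Klf5 and Elk1 are the factors set against, or competing with, myocardin. Klf4 stood at 10.58 in VAD, against 10.39 in VAS, and at 10.41 in BMS, against 9.96 in CTR. It was the single member higher in both treated arrays than in their controls, by 0.19 and 0.44, but CTR was low: BMS minus VAS was 0.02. Klf4 is also expressed in fibroblasts and endothelium. In BMS minus CTR the fibroblast markers were higher in 17 of 17 genes and the endothelial markers in 10 of 15. In BMS minus VAS these counts were 13 of 17 and 13 of 15. In VAD minus VAS, where Klf4 was 0.19 higher, the fibroblast markers were higher in 7 of 17 genes with a median of -0.09 and the endothelial markers in 11 of 15 with 0.22. Their part in the Klf4 value was not tested.

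Klf5 stood at 7.01 in VAD, against 7.33 in VAS, and at 6.59 in BMS, against 6.70 in CTR. Both treated arrays were lower than their controls, with differences of -0.32 and -0.11, and CTR was further below VAS, with -0.64. Against the other control the direction in VAD turned, with 0.32 in VAD minus CTR, and BMS minus VAS was -0.75. Klf5 is prominent in lung epithelium, and the alveolar epithelial markers past the filter were lower in 7 of 9 genes in VAD against VAS and in 7 of 9 in CTR against VAS, with medians of -0.46 and -0.43. In BMS against CTR, where Klf5 differed by -0.11, the same markers were higher in 6 of 9 genes with a median of 0.03. Airway epithelial markers were higher in VAD than in VAS in 4 of 5 genes, with a median of 0.20. Their medians were 0.03 in BMS minus CTR and -0.08 in CTR minus VAS. The part of either list in the Klf5 values was not tested. Elk1 stood at 8.70 in VAD, against 8.57 in VAS, and at 8.71 in BMS, against 8.93 in CTR. CTR was the high array for Elk1, and the other 3 arrays lay within 0.14 of each other, with differences of 0.13 in VAD minus VAS and -0.22 in BMS minus CTR.

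Counted at 2-fold, 1 of the 10 regulators was lower in VAD than in VAS (Abra), where 0.42% of the 12395 genes past the filter were, and none was higher, where 0.234% were. In BMS against CTR none was 2-fold higher, where 1.07% of genes were, and none 2-fold lower, where 0.282% were. Between the controls none was 2-fold apart, where 0.323% of genes were higher and 1.71% lower in CTR. At 1.5-fold, Abra was again the only member counted within either experiment, lower in VAD (2.11% of all genes lower, 1.45% higher) and higher in BMS (3.11% higher, 1.89% lower). At the same 1.5-fold, 3 members, Abra, Klf5 and Fhl2, were lower in CTR than in VAS, where 5.87% of all genes were lower and 2.66% higher. More members were therefore 1.5-fold apart between the controls than within either experiment. The median difference of the 10 was 0.02 in VAD minus VAS, -0.08 in BMS minus CTR and -0.19 in CTR minus VAS, against 0.01, 0.01 and 0.00 over all genes past the filter.

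**Figure D2:**
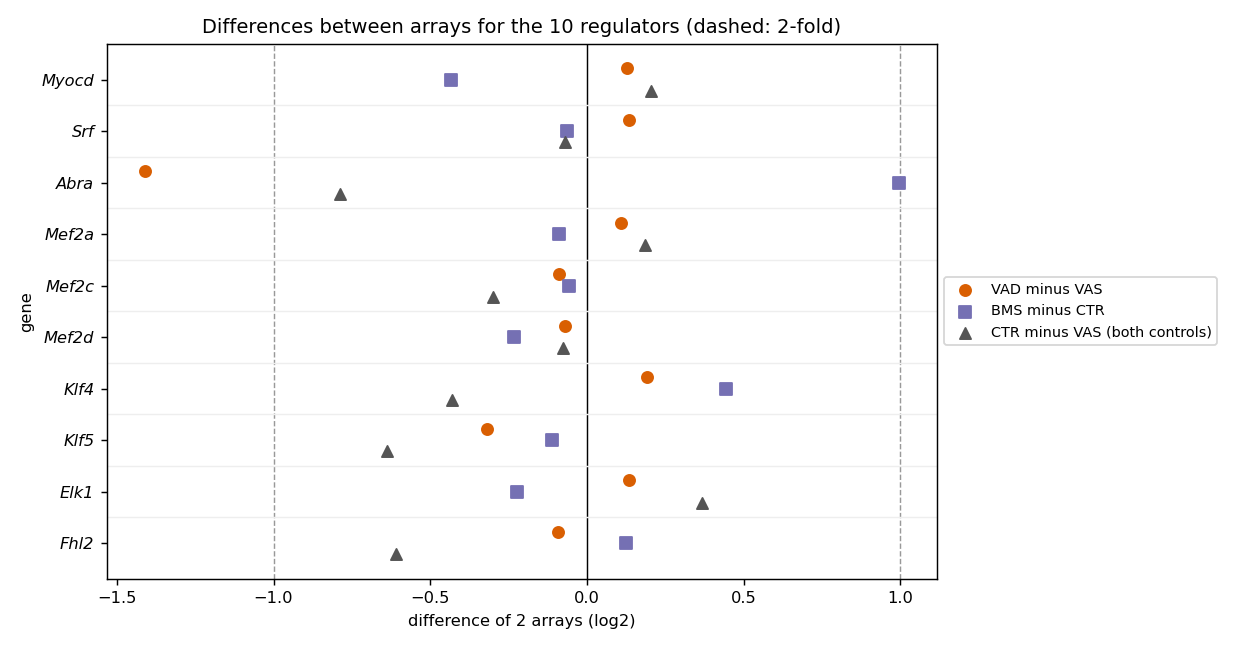
Difference of log2 values between arrays for each regulator, in VAD minus VAS (circles), BMS minus CTR (squares) and CTR minus VAS, the 2 controls (triangles), with dashed lines at 2-fold. Abra lies past 2-fold to the left in VAD at -1.41 and at the 2-fold line to the right in BMS at 0.997, and Klf5 and Fhl2 have their widest difference between the controls, at -0.64 and -0.61.

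The single comparison with more than 1 array on a side set VAD and BMS together against VAS and CTR. It was fitted with limma across the 12395 genes with the experiment as a block, which leaves 1 residual degree of freedom and treats the diet and the antagonist as one treatment. None of the 10 regulators passed an adjusted p of 0.05 (Benjamini-Hochberg), and each had an adjusted p of 1. No gene of the array passed it (0% in each direction), while 212 genes higher and 264 lower had an unadjusted p under 0.05, 1.71% and 2.13%, and 0 members did. Klf4 had the largest estimate upward, 0.32 on the log2 scale with a standard error of 0.14 and a 95% interval from -0.05 to 0.69. Abra, whose differences opposed each other in the 2 experiments, had an estimate of -0.21 with a standard error of 0.56 and an interval from -1.66 to 1.24. For Srf the interval ran from -0.32 to 0.39, for Mef2a from -0.35 to 0.37 and for Myocd from -0.62 to 0.32. Leaving out 1 array at a time, without the block, the Abra estimate ran from -1.02 without BMS to 0.60 without VAD. Its direction thus turned with the array left out. The Klf4 estimate ran from 0.10 without CTR to 0.53 without VAS, with adjusted p-values of 0.94 and 0.98 from limma.

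Genes past the filter were ranked by how near their profile over the 4 arrays, centred on its own mean, lay to that of Abra, the one member spanning at least 2-fold. The nearest 5 by Euclidean distance on the log2 scale were Ass1, which makes argininosuccinate, Cadm3, a cell adhesion protein, Bmp6, a bone morphogenetic protein, Ptger3, a prostaglandin E receptor, and Moxd1, a monooxygenase-like protein. Their distances were 0.27, 0.30, 0.46, 0.50 and 0.51. Cadm3 was at 6.55 in VAD, against 7.71 in VAS, and at 8.01 in BMS, against 6.76 in CTR. Ass1 was at 4.94 in VAD, against 6.14 in VAS, and at 6.23 in BMS, against 5.52 in CTR. With 4 arrays, likeness of profile describes these pools and no more.

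**Figure D3:**
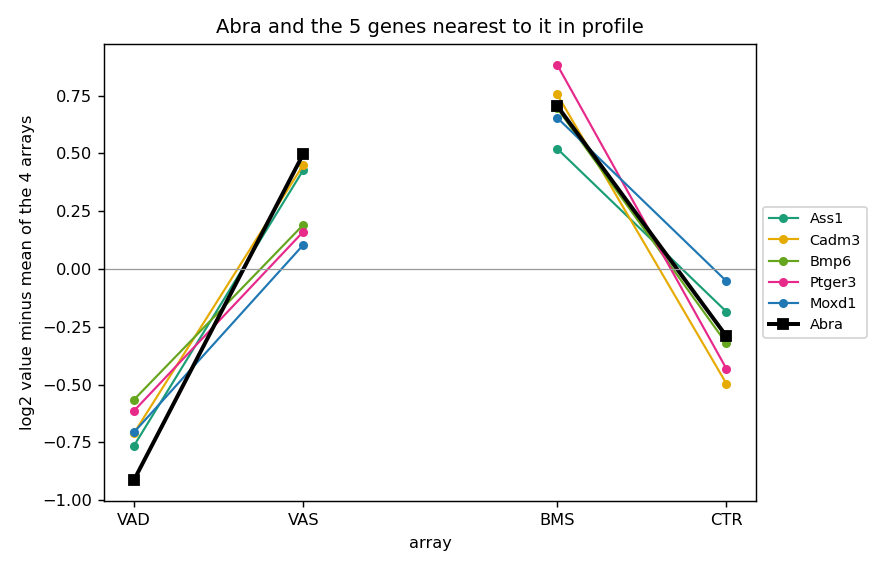
Log2 value minus the mean of the 4 arrays for Abra (thick line, squares) and the 5 genes nearest to it in profile (circles), 1 point per array, with lines joining the arrays of 1 experiment. All 6 genes are lowest in VAD and highest in BMS.

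Genes that the regulators act on, and the proteins around them, were described by lists chosen for their roles. The 24 myocardin-SRF contractile targets were higher in VAD than in VAS in 21 genes with a median of 0.16, and lower in BMS than in CTR in 20 with a median of -0.12. Over all genes past the filter, 51.4% were above 0 in each of these comparisons. None was 2-fold apart in either. Casq2, a calcium store protein, was 0.78 higher in VAD and 0.61 higher in BMS, Ldb3, a Z-disc protein, differed by 0.66 and 0.09, and Des, the intermediate filament desmin, by 0.40 and -0.22. Myom1, a sarcomere protein, differed by 0.10 in VAD minus VAS and -0.69 in BMS minus CTR. Between the controls the list had a median of -0.10, and the Casq2 level in CTR was 0.42 below VAS (-0.42). Beside these targets, airway smooth muscle markers were higher in VAD in 10 of 15 genes and lower in BMS in 14 of 15. Acta2, Cnn1, Myh11, Actg2, Des and Itga8 stand in both lists. Outside the shared genes, the markers Chrm2 and Tacr2 differed by -1.25 and -0.72 in VAD minus VAS, and Lgr5 by 0.74. Endothelial markers were higher in VAD in 11 of 15 genes and pericyte and vascular smooth muscle markers in 10 of 15. In BMS the pericyte and vascular smooth muscle markers were lower in 13 of 15 genes, and fibroblast markers were higher in 17 of 17. Their part in the contractile values was not tested. Against the other control the contractile list kept its sign, with medians of 0.26 in VAD minus CTR and -0.20 in BMS minus VAS. The pericyte and vascular smooth muscle markers did not, with medians of -0.32 and 0.23. Fibroblast markers were higher in BMS than in VAS in 13 of 17 genes, with a median of 0.24.

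The 20 MRTF-SRF cytoskeletal targets were higher in VAD than in VAS in 20 genes, with a median of 0.24 and 4 of them past 1.5-fold. These were Itga5, an integrin, with 0.75, the kinase gene Nuak1 with 0.72, and Ccn2, a matricellular growth factor, and Ankrd1, a muscle ankyrin protein, with 0.60 each. In BMS minus CTR the list had a median of -0.13, with 4 genes above 0. Pdlim5, a PDZ and LIM protein, differed by -0.60, Ankrd1 by -0.52 and Nuak1 by -0.44, while Coro1a, a coronin of leukocytes, was 0.71 higher. In BMS minus VAS these genes differed by -0.19, -0.38, 0.35 and -0.19, in the same order, so Nuak1 and Coro1a changed sign. Nuak1 was also 0.79 higher in CTR than in VAS, which leaves -0.07 in VAD minus CTR, and against CTR 13 of the 20 genes were above 0. Endothelial markers moved the same way as these targets in VAD, higher in 11 of 15 genes with a median of 0.22, and pericyte and vascular smooth muscle markers in 10 of 15 with 0.19. In BMS minus CTR the endothelial median was 0.12 and the pericyte and vascular smooth muscle median -0.23. Against the other control the pericyte and vascular smooth muscle medians turned, to -0.32 in VAD and 0.23 in BMS. The endothelial medians were then 0.09 and 0.14. The part of either list in the target values was not tested.

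Immediate early SRF targets, listed for the Elk1 branch, were higher in VAD than in VAS in 15 of 20 genes with a median of 0.06. They were higher in BMS than in CTR in 7 of 20 with a median of -0.06. Fosl1, an AP-1 subunit, differed by 0.33 in VAD minus VAS, -0.20 in BMS minus CTR and -0.80 in CTR minus VAS. Egr2, whose windows hold a CArG box, was 0.70 higher in BMS than in CTR and 0.17 higher in VAD than in VAS. CTR was its low array, with -0.57 in CTR minus VAS, and BMS minus VAS was 0.13. Of the 16 list genes with promoter windows, 2 held a CArG box, Egr2 and Zfp36, against 1.81% of all genes with windows. The ERK and ternary complex genes had medians of 0.04 and 0.15 over 12 genes, with Elk3, a second ternary complex factor, 0.42 higher in BMS and -0.06 in VAD. No gene of either list was 2-fold apart within an experiment.

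MEF2 partners, which include the class IIa histone deacetylases that hold MEF2 in check and the kinases that release it, had medians of 0.04 in VAD minus VAS and 0.07 in BMS minus CTR over 23 genes. Mef2b lay below the filter. Vgll3, a TEAD cofactor, was 0.58 higher in VAD, Camk2b differed by -0.50 and Hdac9 by -0.36, while in BMS minus CTR Vgll4 was 0.39 higher and Hdac5 differed by -0.30. Among 13 other Kruppel-like factors past the filter, Klf2, a flow-responsive factor of endothelium, was 0.52 higher in VAD and 0.48 higher in BMS. Its 2 controls lay 0.03 apart. Klf15, a glucocorticoid-induced factor that restrains SRF and MEF2 in mouse heart, differed by -0.71 in BMS minus CTR and by 0.09 in VAD minus VAS. CTR was the high array for Klf15, at 1.02 above VAS. No gene of these 2 lists was 2-fold apart within an experiment.

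**Figure D4:**
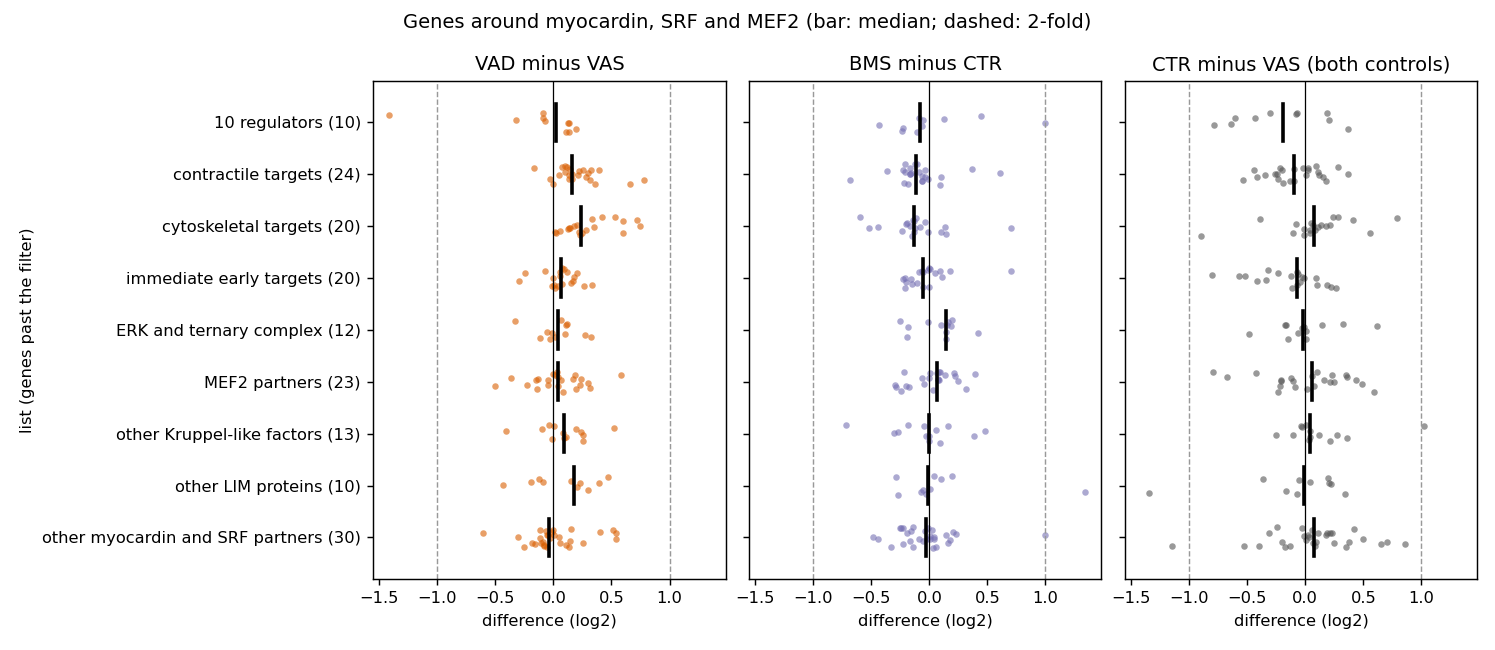
Difference of log2 values for every gene past the filter in each list (points) with the list median (bar), in VAD minus VAS, BMS minus CTR and CTR minus VAS, with dashed lines at 2-fold. Cytoskeletal targets lie above 0 in VAD in all 20 genes, and contractile targets have medians of 0.16 in VAD and -0.12 in BMS.

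Markers of other cells were read on the same arrays, because Abra, the MEF2 genes and Fhl2 are strongly expressed in cardiac muscle, skeletal muscle or both. Of 25 cardiac myocyte markers, 14 did not reach the filter on any array, including Myh6, Myl7, Nppa and Sln, and of 15 skeletal muscle markers 9 did not, including Myh1, Myh2, Myh4 and Myod1. The summed linear level of the cardiac list was 9774.5 in VAD, against 10496.4 in VAS, and 7560.1 in BMS, against 9036.2 in CTR. This sum is carried in large part by Actc1, Tnnt2 and Tbx5, and Actc1 also stands in the airway smooth muscle list. For the skeletal list the sum was 1094.0 in VAD, against 1138.1 in VAS, and 964.0 in BMS, against 902.8 in CTR. The 6 skeletal markers past the filter had medians of -0.14 in VAD minus VAS, 0.14 in BMS minus CTR and -0.46 in CTR minus VAS. In VAD 2 of the 6 were higher. These medians had the same signs as Abra in all 3 comparisons. So had those of the fibroblast list, with -0.09, 0.43 and -0.38, and of the alveolar epithelial list, with -0.46, 0.03 and -0.43. For the macrophage and monocyte list the medians were -0.0025, 0.19 and -0.70, so it was nearly level in VAD, with 5 of 11 genes higher. Against the other control the signs did not all hold. In VAD minus CTR the skeletal, fibroblast, alveolar and macrophage medians were 0.46, 0.11, 0.10 and 0.84, where Abra had -0.62. In BMS minus VAS they were -0.56, 0.24, -0.63 and -0.58, where Abra had 0.21.

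Fibroblast markers had a summed linear level of 28513.5 in VAD, against 29673.1 in VAS, and 32765.1 in BMS, against 24769.2 in CTR. In BMS against CTR 6 of the 17 were 2-fold higher, among them Fap with 2.47 and Cd34 with 1.71. Against VAS 1 of the 17 was 2-fold higher in BMS, and Fap and Cd34 differed by 1.87 and 0.34. Leukocyte lists had medians of -0.70 over 11 macrophage and monocyte genes and -1.002 over 6 lymphocyte and granulocyte genes in CTR minus VAS. Macrophage markers had a median of 0.00 in VAD minus VAS and 0.19 in BMS minus CTR, with sums of 3147.5 in VAD, against 3124.6 in VAS, and 2175.1 in BMS, against 2029.5 in CTR. Lymphocyte and granulocyte markers had medians of 0.02 and 0.05. Airway epithelial markers had medians of 0.20 and 0.03 over 5 genes. The airway smooth muscle markers had a median of 0.14 in VAD minus VAS and 0.12 in CTR minus VAS, and pericyte and vascular smooth muscle markers had medians of -0.23 in BMS minus CTR and 0.33 in CTR minus VAS. Alveolar epithelial markers summed to 1954.6 in VAD, against 3561.1 in VAS, and 1902.9 in BMS, against 1456.2 in CTR. The fibroblast, skeletal muscle and alveolar epithelial sums were, like Abra, lower in VAD and higher in BMS than in the control of the same experiment. Their highest arrays were BMS for the fibroblast sum, as for Abra, and VAS for the other two. The part of any of these lists in the Abra value was not tested.

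**Figure D5:**
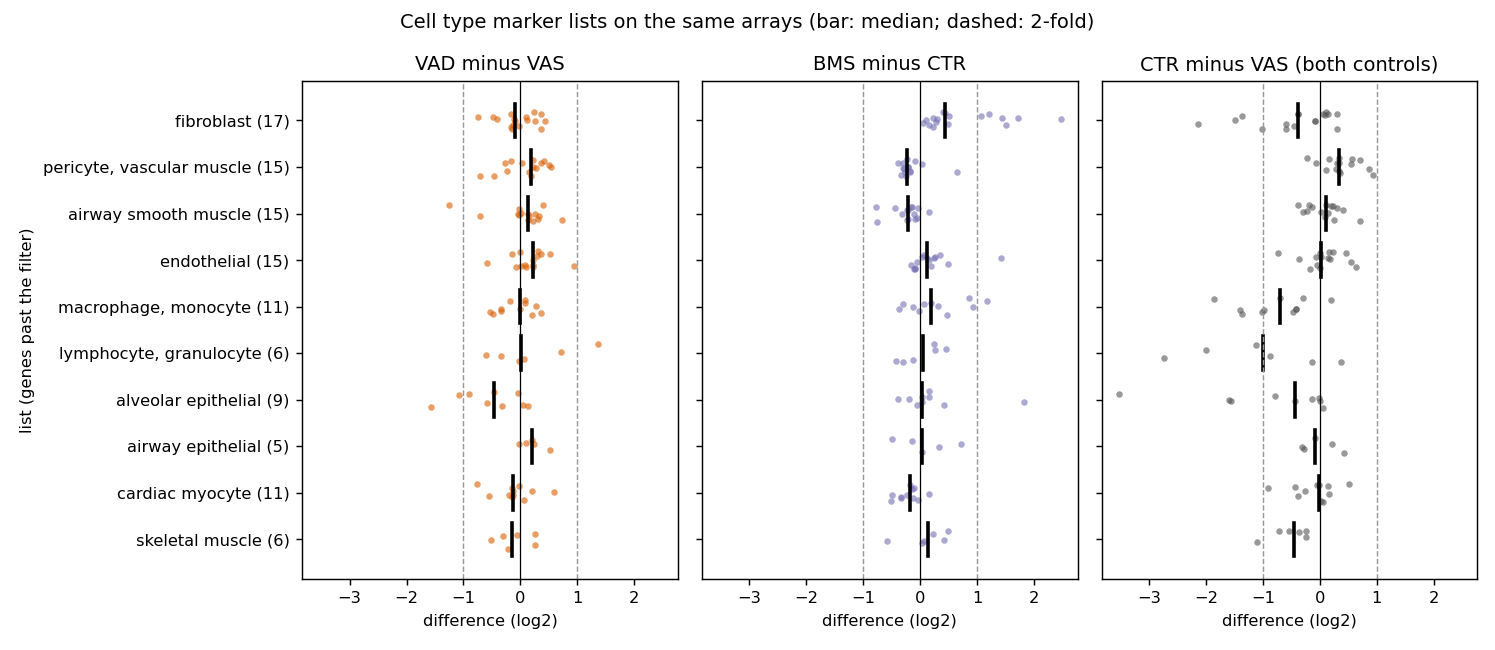
Difference of log2 values for every gene past the filter in each cell type marker list (points) with the list median (bar), in VAD minus VAS, BMS minus CTR and CTR minus VAS, with dashed lines at 2-fold. Fibroblast markers lie above 0 in BMS minus CTR in 17 of 17 genes, and the leukocyte lists have medians of -0.70 and -1.002 in CTR minus VAS.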

How the data were processed

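RNA of sorted airway smooth muscle cells, pooled from 3 mice per group, was hybridised to 4 Affymetrix arrays, with 1 array each for VAD, VAS, BMS and CTR, grouped by sample title. The deposited values are log2 expression made by the authors with RMA (affy 1.36.1, R 2.15.1), per the submitters' processing notes. The set of arrays normalized together was not stated there. Normalization between arrays hides a shift shared by most genes, and background detection per probe set is unknown. The number of arrays limits the precision.

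Probe sets were named through GEO's platform annotation by Entrez number (23185 with 1 symbol, 2021 unnamed), all 23185 matched to RefSeq genes of assembly GRCm38.p6. Genes were kept where the maximum over the 4 arrays was at least 6.05, the median over all named genes and arrays. Differences of 2 arrays carry no test. limma 3.58.1 in R 4.3.3 (lmFit, eBayes, Benjamini-Hochberg over 12395 genes) was used for the joint comparison and tested on simulated data. Python 3.11.15, numpy 2.4.6, pandas 2.3.3 and matplotlib 3.10.9 were used. The text names all members and the 5 genes nearest to a member spanning at least 2-fold. From each list it could name at most 3 genes per experiment by size of difference, plus any past 2-fold. Not every list gene past 2-fold is named, and some genes outside this rule are, such as those shared between lists. Marker genes below the filter were named after their values were seen. The members and lists were chosen with earlier results of these data known, and 1 list is not reported here. Alternatives were other filters, folds, normalizations, controls, limma settings and leaving out each array.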

Additional observations from a re-analysis of the deposited data

Results flagged for a closer look

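Abra was singled out because its difference had opposite signs in the 2 experiments and was at least 1.5-fold in each. VAD minus VAS was -1.41 and BMS minus CTR was 0.997, so the diet effect minus the antagonist effect was -2.41 on the log2 scale. With 1 array per group the difference of effects was not tested. The CTR array lay 0.79 below VAS for this gene (CTR minus VAS, -0.79), and against the mean of both controls the values were -1.02 in VAD and 0.60 in BMS.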

How the results depend on the processing

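Of the counts of members past 2-fold, that of VAD against VAS (1 gene, Abra) became 0 with CTR in place of VAS and 0 with the filter at the 75th percentile, 7.67, which Abra and Klf5 do not reach. It stayed at 1 with no filter, at 1.5-fold, with quantile normalization again, with cyclic loess, with unnamed probe sets included and against the mean of both controls. The count of BMS against CTR, 0, became 1 at 1.5-fold, and that of CTR against VAS, 0, became 3 at 1.5-fold. The joint limma count of 0 members stayed at 0 under the other filters, normalizations and limma settings. No gene of the array was called under any of these, so the count says nothing of the members in particular. Of 190 recomputed member differences, 6 moved by over 1.5-fold, all for Abra, Klf5 and Fhl2 against the other experiment's control, and 15 changed sign, each of them against another control or the mean of both. Of 317 list medians, 11 moved by over 1.5-fold, all of them of skeletal muscle, leukocyte or alveolar epithelial markers. With the filter at the 75th percentile the alveolar epithelial median was -1.08 in VAD minus VAS and -1.56 in CTR minus VAS, and that of lymphocyte and granulocyte markers -1.999 in CTR minus VAS. Against the other control the skeletal, macrophage and lymphocyte medians in VAD were 0.46, 0.84 and 1.35 (0.64 for the last against the mean of both controls). In BMS they were -0.56, -0.58 and -0.95, and the alveolar median was -0.63. Some list medians moved by less than 1.5-fold but changed sign against the other control. Among them, in VAD, the pericyte and vascular smooth muscle median went from 0.19 to -0.32. The fibroblast median went from -0.09 to 0.11 and the alveolar from -0.46 to 0.10. In BMS the pericyte and vascular smooth muscle median went from -0.23 to 0.23. A second normalization moved the member differences by at most 0.0435. The joint comparison pairs VAD with VAS and BMS with CTR through the experiment block, and the count of members was 0 with and without it. Across all genes, the number 2-fold higher and lower in VAD was 29 and 52 against VAS, 174 and 45 against CTR and 49 and 28 against the control mean, and in BMS it was 133 and 35 against CTR, 70 and 181 against VAS and 69 and 49 against the mean. Signal over background could not be judged from the deposited values.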

Other observations

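Fhl5, a LIM protein related to Fhl2, was at 7.48 in VAD, against 7.92 in VAS, and at 7.92 in BMS, against 6.57 in CTR. It was 1.34 higher in BMS than in CTR and differed by -0.43 in VAD minus VAS, and CTR was its low array, at -1.34 from VAS. Csrp2, a smooth muscle LIM protein that bridges SRF and GATA factors, was 0.47 higher in VAD and 0.00 apart in BMS minus CTR. The 10 LIM genes past the filter had medians of 0.18 in VAD minus VAS and -0.01 in BMS minus CTR, with Fhl5 the 1 gene past 2-fold.

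Among 30 other transcription factors and cofactors, the medians were -0.04 in VAD minus VAS and -0.03 in BMS minus CTR, and none was past 2-fold within an experiment. Twist1, a mesenchymal factor, followed the signs of Abra, at 7.11 in VAD, against 7.71 in VAS, and at 7.56 in BMS, against 6.57 in CTR. Its differences were -0.61, 0.996 and, between the controls, -1.14. Tead1, which binds contractile promoters with YAP proteins, was 0.54 higher in VAD and differed by -0.23 in BMS minus CTR, while Yap1 differed by -0.31 and -0.44. Hey2 and Heyl, Notch-induced factors, differed by 0.26 and 0.54 in VAD minus VAS and by -0.49 and -0.23 in BMS minus CTR, and both were higher in CTR than in VAS, by 0.71 and 0.86.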
